A study of Homo sapiens with 12 samples.

Results

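The MAX network was examined through 10 genes in the human erythroleukemia line K-562: MYC, its dimer partner MAX, the MAX partners MXD1, MXD3, MXD4, MXI1, MNT and MGA, and the parallel pair MLX and MLXIP. The 10 genes were taken by name from a table of 60658 gene rows, and each of them was among the 13393 genes that passed the filter on low values, which asked that 3 or more of the 12 libraries reach an FPKM of 1. FPKM is the number of fragments scaled by transcript length and by the size of the library, so levels of different genes can be set side by side on it. The 12 libraries form 4 groups of 3. The control group was a stable line with only the 3xTY1 tag, given a siGENOME non-targeting siRNA. The knockdown group was the 3xTY1 line given si2992, an siRNA against MYB. The wild-type rescue group was a 3xTY-hcM line, which expresses tagged wild-type MYB, given si2992. The D152V rescue group was a 3xTY-D152V line, which expresses MYB with an aspartate-to-valine substitution, given the same siRNA. Every line was selected with G418, and in 3 separate experiments RNA was prepared 24 hours after the siRNA. Each MYB form was carried by 1 stable line, so the form and the line cannot be told apart, and the labels do not say whether a line is a clone.

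MYC is a basic helix-loop-helix zipper protein that binds DNA as a dimer with MAX, at E-box sequences such as CACGTG, and is known for driving ribosome production, metabolism and growth in leukemic cells. The MXD proteins, MXI1, MNT and MGA compete for MAX and bring corepressors to the same kind of site, so the balance between MYC and these partners is commonly read as the activity of the network. MLX is the MAX-like partner of a parallel arm, in which MLXIP, also called MondoA, senses glycolytic intermediates and activates genes of glucose handling. MYB, the siRNA target, is a transcription factor of blood progenitors whose recognition sequence has the core AACNG.

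MYB, which checks the labels, was at 124, 132 and 104 FPKM in control replicates 1, 2 and 3, at 26.1, 32.9 and 31.5 FPKM in the knockdown, at 132, 125 and 115 FPKM in the wild-type rescue and at 86.6, 86.2 and 100.4 FPKM in the D152V rescue. The knockdown libraries were below every other library, and the D152V libraries were below the wild-type rescue libraries (log2 difference of -0.44, adjusted p = 0.0494). MYB_KnockDown replicate 1 stood apart. Its FPKM total was 1215578 against 672616 to 798362 in the 11 other libraries, and its correlations with the 2 other knockdown libraries were 0.929 and 0.930. In that library tested genes with transcripts of up to 1500 bases had a median deviation of 0.75 on the log2 scale from the median of the 12 libraries, and those of 5000 bases or more a median of -0.51. Called differences of members that involve the knockdown are therefore given with and without it. Depth per library is unknown, because read counts could not be recovered from the FPKM values. The 14 erythroid markers of K-562 all reached 1 FPKM, with summed levels of 1788 to 3498 FPKM in the control, 2267 to 8605 in the knockdown, 1447 to 2455 in the wild-type rescue and 2759 to 4565 in the D152V rescue. Of 16 markers of other cell types 6 reached 1 FPKM, among them EPCAM at 32.1 to 126 FPKM and CD3D at 16.0 to 109.6 FPKM, MS4A1 was at 0 in every library, and the 16 summed to 94.5 to 215 FPKM in the knockdown and 103 to 158 FPKM in the other groups. Single markers moved within these sums. In knockdown replicates 1, 2 and 3 the erythroid marker HBE1 was at 3300, 815 and 2031 FPKM, and CD3D at 73.4, 21.8 and 16.0 FPKM. For both the highest value was in replicate 1, and the sums are given only with that library. CD3D was at 90.8 ± 16.8 FPKM in the D152V rescue and 19.6 ± 3.37 in the control (2.15, adjusted p = 0.00917), and LYZ at 4.19 ± 0.813 and 20.9 ± 4.66 FPKM (-2.07, adjusted p = 0.00528). Of the 14 erythroid markers 12 differed upward in the knockdown, with 1 called, and 7 were called lower and 1 higher in the wild-type rescue against the knockdown. The part of these markers in the results was not tested. In bulk RNA fewer cells of a type and less RNA per cell cannot be told apart.

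MYC was the most abundant member in each of the 12 libraries. Its mean over them, 151 FPKM, was above 94.8% of the tested genes. In the control group the order of the mean levels was MYC at 204 FPKM, MAX at 70.8, MLX at 32.9, MLXIP at 25.6, MXI1 at 9.09, MXD1 at 8.81, MGA at 8.67, MNT at 7.22, MXD4 at 4.86 and MXD3 at 4.66 FPKM. The first 4 did not overlap with their neighbours over the 3 control libraries, whereas MXI1 and MXD1, MXD1 and MGA, MGA and MNT, and MXD4 and MXD3 overlapped. In the knockdown MXD3 moved from the last place to the fifth, with a mean of 7.71 FPKM, next to MXI1 at 7.62 FPKM and within its spread. The knockdown means were 7.43 and 7.83 FPKM without MYB_KnockDown replicate 1, and MXD3 was the sixth. MLXIP was below MLX in every control and knockdown library and above MLX in every rescue library.

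**Figure D1:**
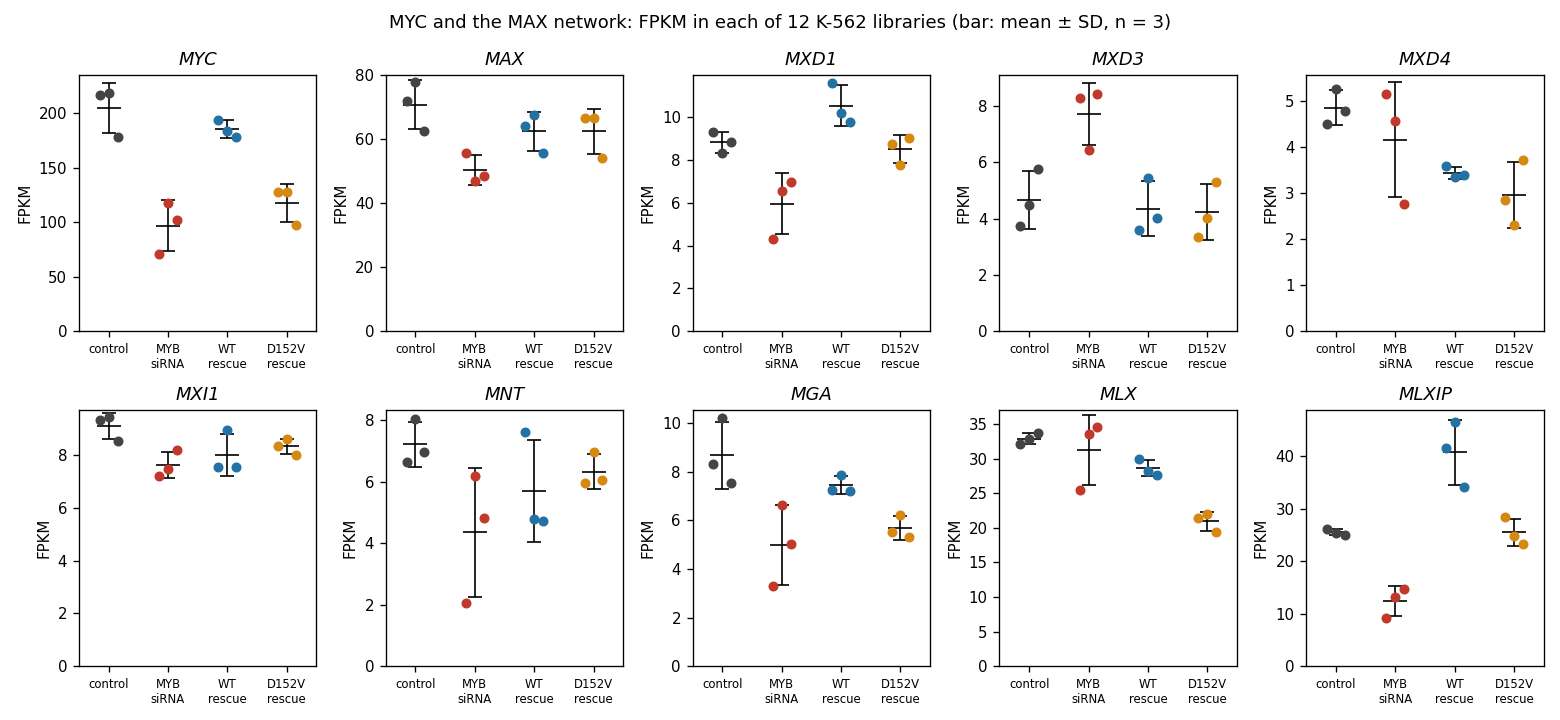
FPKM (vertical axis, from 0) of each of the 10 genes in the 3 libraries of each of the 4 groups (horizontal axis), with a point per library and a bar for the mean ± SD of 3. MYC and MLXIP are lowest in the knockdown, and MLX is lowest in the D152V rescue, where its 3 libraries sit between 19.4 and 21.9 FPKM.

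Sequences before the annotated start sites were read for the members because the proteins of this network and MYB each have a known recognition sequence. RefSeq windows on GRCh38.p14 were read for 9 of the 10 members. MYC was not included in this search, so nothing is said here about the sequence before its start. For the 9 members, the 250 bases before the start of each of their 14 windows were searched on both strands for the E-box CACGTG. A second search took one form of the MYB core, AACGG. The E-box was found in 3 of the 14 windows, 1 each for MLX, MNT and MXD4, against 6.35% of 35114 windows of all genes. The match began 50 bases before the start for MLX, 193 for MNT and 238 for MXD4. AACGG was found for MGA, in 3 windows, and for MXI1, in 1, against 16.5% of all windows, while AACNG, which includes it, was in 70.6% of them. A match describes letters and is not evidence of binding. The windows of the 3 members with an E-box, and that of MLXIP, the member with the largest single difference, are shown 5′ to 3′ on the strand of the gene, with CACGTG in capitals. They lie at chr17:42566850-42567099 (plus strand) for MLX, chr17:2401061-2401310 (minus strand) for MNT, chr4:2262110-2262359 (minus strand) for MXD4 and chr12:122078506-122078755 (plus strand) for MLXIP.
MLX: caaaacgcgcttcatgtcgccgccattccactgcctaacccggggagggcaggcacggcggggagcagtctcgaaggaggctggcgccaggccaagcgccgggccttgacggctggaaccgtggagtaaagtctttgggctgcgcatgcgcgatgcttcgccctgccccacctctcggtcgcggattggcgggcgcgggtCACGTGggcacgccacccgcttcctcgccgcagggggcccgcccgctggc
MNT: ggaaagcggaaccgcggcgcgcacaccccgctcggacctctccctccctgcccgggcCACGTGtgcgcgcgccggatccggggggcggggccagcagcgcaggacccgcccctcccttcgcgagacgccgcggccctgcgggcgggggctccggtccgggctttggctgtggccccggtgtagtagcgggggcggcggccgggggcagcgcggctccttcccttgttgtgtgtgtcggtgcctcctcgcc
MXD4: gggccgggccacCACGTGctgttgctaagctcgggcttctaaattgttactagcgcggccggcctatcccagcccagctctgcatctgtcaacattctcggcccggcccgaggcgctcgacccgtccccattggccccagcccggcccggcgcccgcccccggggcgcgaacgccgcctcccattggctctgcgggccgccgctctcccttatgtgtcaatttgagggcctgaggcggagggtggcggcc
MLXIP: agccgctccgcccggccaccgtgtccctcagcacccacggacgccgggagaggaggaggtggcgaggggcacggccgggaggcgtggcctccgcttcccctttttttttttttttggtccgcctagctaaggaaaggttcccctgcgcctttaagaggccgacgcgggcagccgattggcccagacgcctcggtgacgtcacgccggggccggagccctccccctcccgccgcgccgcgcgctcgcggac
The MLXIP window holds neither motif, which says only that these letters are not in this stretch.

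Knockdown of MYB was compared with the control to ask how the network responds to less MYB. MYC, MLXIP, MGA and MAX fell, and no member was called higher. These 4 of 10 members stand beside 11.3% of all tested genes called at an adjusted p under 0.05, of which 3.94% were higher and 7.38% lower. The median difference of the 10 members was -0.50, on the log2(FPKM + 1) scale used for every log2 difference given here, and that of all tested genes was -0.03. In 8 of the 10 members the 3 knockdown libraries did not overlap with the 3 control libraries, beside 36.5% of all tested genes. Of these 8 members 7 were lower and 1, MXD3, was higher (0.63, adjusted p = 0.0591). Without MYB_KnockDown replicate 1, 5 members were lower, MXD1 being the fifth, and the members' median was -0.35. That fit called a larger share of all tested genes than the 11.3%, as given below with the genes that MYC activates. With only the 6 libraries compared in the fit, none of the 10 passed the test, and 16 genes passed over the whole table. The knockdown libraries enter this comparison and both comparisons of a rescue with the knockdown, so these are not independent of each other.

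MYC (chromosome 8, 127735434 to 127742951 on GRCh38) was at 217, 218 and 178 FPKM in control replicates 1, 2 and 3 and at 71.2, 117 and 102 FPKM in the knockdown. All 3 knockdown libraries were below the lowest control, and the lowest of them was the library that stood apart. The mean fell from 204 ± 22.6 to 96.7 ± 23.4 FPKM (SD, n = 3), 47.3% of the control (log2 difference -1.10, SE 0.18, adjusted p = 0.00738). The difference was -0.89 (adjusted p = 0.00145) without MYB_KnockDown replicate 1. The call was lost in 1 of 21 alternatives, the fit on only the 6 libraries compared (adjusted p = 0.138), over a range of 0.00145 to 0.138.

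In the wild-type rescue MYC was at 194, 183 and 178 FPKM, above every knockdown library and overlapping with the control. It rose against the knockdown by 0.96 (SE 0.18, adjusted p = 0.00262, and 0.75 with 0.000859 without MYB_KnockDown replicate 1), and this call held in all 21 alternatives, with adjusted p from 0.000859 to 0.0362. The difference from the control was -0.14, with a 95% interval of -0.54 to 0.26 (adjusted p = 0.727). In the D152V rescue MYC was at 127, 127 and 97.1 FPKM, below every control and every wild-type rescue library and overlapping with the knockdown. Its mean of 117 ± 17.5 FPKM was 57.4% of the control mean, against 90.5% for the wild-type rescue at 185 ± 8.0 FPKM. The difference between D152V rescue and knockdown, 0.29, had a 95% interval of -0.11 to 0.69 and did not pass the test (adjusted p = 0.242). Without MYB_KnockDown replicate 1 it was 0.09 (adjusted p = 0.628).

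MYC was lower in the D152V rescue than in the wild-type rescue (log2 difference -0.66, SE 0.18, adjusted p = 0.0351), and this difference tests the 2 rescue lines directly under the same siRNA. It was lost in 10 of 21 alternatives, among them no filter and quantile normalization, over a range of adjusted p from 0.00144 to 0.141. Leaving out any 1 of the 6 rescue libraries, or control replicate 1 or 2, gave adjusted p of 0.0531 to 0.141 with differences of -0.73 to -0.53. Against the control, MYC fell in the D152V rescue by 0.80 (adjusted p = 0.0169). That call was lost with quantile normalization (0.0919). It was also lost without control replicate 1 (0.0735), control replicate 2 (0.0774) or D152V replicate 3 (0.0834), over a range of 0.00053 to 0.0919. MYB itself was at 91.1 ± 8.11 FPKM in the D152V rescue and 124 ± 8.87 FPKM in the wild-type rescue, and the part of that difference in the MYC result was not tested.

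**Figure D2:**
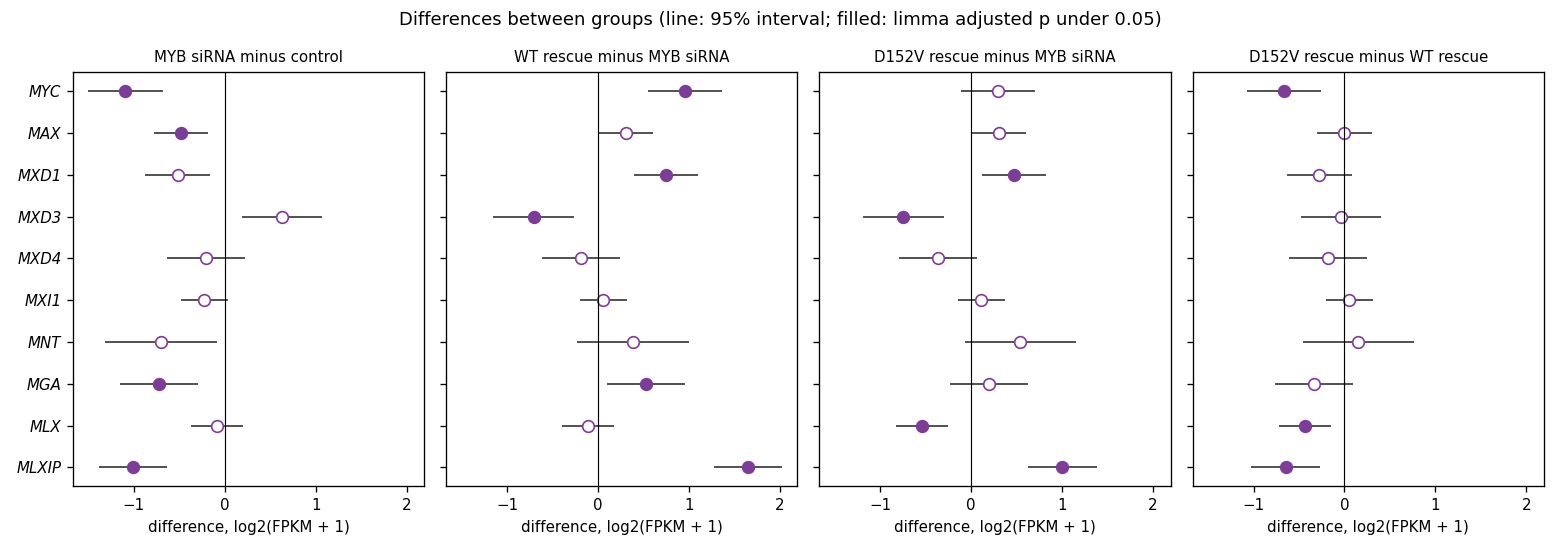
Difference between groups on the log2(FPKM + 1) scale (horizontal axis) for each of the 10 genes (vertical axis) in 4 comparisons, with a point for the estimate, a line for its 95% interval and a filled point for an adjusted p under 0.05. MYC is filled in each panel except D152V rescue against knockdown, where its interval runs from -0.11 to 0.69.

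MAX (chromosome 14, 65006101 to 65102695), the obligate partner of MYC and its competitors, was at 72.1, 77.8 and 62.6 FPKM in the control and at 55.6, 47.1 and 48.5 FPKM in the knockdown. The groups did not overlap, and MAX fell by 0.48 (SE 0.13, adjusted p = 0.0407), to 71.2% of the control mean. This call was lost in 12 of 21 alternatives, over a range of adjusted p from 0.00904 to 0.190. Without any 1 of the 3 control libraries, knockdown replicates 2 or 3, wild-type rescue replicates 1 or 2 or D152V replicates 1 or 2, the adjusted p was 0.0538 to 0.151. The difference in MAX was -0.55 (adjusted p = 0.00904) without MYB_KnockDown replicate 1. Both rescues had near-equal means of MAX, 62.4 ± 6.05 and 62.4 ± 7.07 FPKM for wild type and D152V, and their difference of 0.00 had a 95% interval of -0.29 to 0.29. Each rescue lay 0.30 above the knockdown and did not pass the test (adjusted p = 0.0913 and 0.111), but without MYB_KnockDown replicate 1 both did, at 0.37 (0.0244 and 0.0338). MAX overlaps with FNTB, a farnesyltransferase subunit gene, over 56550 bases, and whether the counting used strand is unknown here. FNTB was at 9.86 ± 3.51 FPKM in the knockdown and 11.4 ± 0.419 FPKM in the control (adjusted p = 0.419).

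Among the repressive partners, MGA, the largest of them and a subunit of a Polycomb complex, fell in the knockdown. It was at 8.30, 10.2 and 7.51 FPKM in the control and at 3.31, 6.62 and 5.03 FPKM in the knockdown. All knockdown values were below the control, replicate 1 being the lowest (log2 difference -0.72, SE 0.19, adjusted p = 0.0361, and -0.50 with adjusted p = 0.0280 without that library). MGA has a transcript of 12193 bases, and with each library's trend with transcript length removed the difference was -0.44 (adjusted p = 0.0670). The call was lost in 12 of 21 alternatives, over a range of adjusted p from 0.0163 to 0.207. Those 12 include leaving out any 1 of the 9 libraries of the other groups, which gave 0.0517 to 0.137. MGA was at 7.23, 7.86 and 7.22 FPKM in the wild-type rescue, above every knockdown library (0.53, adjusted p = 0.0465). The call was lost in 17 of 21 alternatives, with 0.0897 without MYB_KnockDown replicate 1 and 0.543 with the length trend removed, over a range of 0.0102 to 0.543. It was lost without any 1 library except knockdown replicate 2. In the D152V rescue MGA was at 5.51, 6.23 and 5.30 FPKM, which overlapped with the knockdown and was below every wild-type rescue and control library, but neither the difference from wild-type rescue (-0.34, adjusted p = 0.317) nor that from the control (-0.53, adjusted p = 0.122) passed the test. The latter passed in 4 alternatives, among them the fits without MYB_KnockDown replicate 1 and with the length trend removed, with adjusted p down to 0.00933.

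MXD1, a MAX partner linked to differentiation, was at 9.30, 8.30 and 8.82 FPKM in the control and at 4.31, 6.56 and 6.96 FPKM in the knockdown. The knockdown was below the control in all 3 libraries (log2 difference -0.52, adjusted p = 0.0545, and -0.34 with 0.0445 without MYB_KnockDown replicate 1). In the wild-type rescue it was at 11.6, 10.2 and 9.78 FPKM, above every library of the other groups, and rose against the knockdown by 0.75 (SE 0.16, adjusted p = 0.00437, and 0.57 with 0.00137 without MYB_KnockDown replicate 1). This call was lost only on the 6 libraries compared (0.0588, in a range of 0.00137 to 0.0588). In the D152V rescue MXD1 was at 8.75, 7.76 and 9.01 FPKM, overlapping with the control. It rose against the knockdown by 0.47 (adjusted p = 0.0473), a call lost in 17 of 21 alternatives over a range of 0.0249 to 0.194. Leaving out MYB_KnockDown replicate 1 (0.29, adjusted p = 0.0552) or any 1 library of the control or the rescues (0.0608 to 0.127) ended it.

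MXD3, a MAX partner best known from the S phase of cycling progenitors, went the other way. It was at 3.73, 4.49 and 5.76 FPKM in the control, at 8.27, 6.43 and 8.43 FPKM in the knockdown, at 3.60, 5.45 and 4.0 FPKM in the wild-type rescue and at 3.36, 4.02 and 5.30 FPKM in the D152V rescue. The knockdown libraries lay above every other library, and the other 3 groups overlapped. Against the control the difference of 0.63 did not pass the test (adjusted p = 0.0591, and 0.58 with 0.0729 without MYB_KnockDown replicate 1). It passed in 4 of 21 alternatives, with adjusted p down to 0.0360. These were quantile normalization, median-ratio scaling, the replicate block and the fit without MYB_KnockDown replicate 2. MXD3 fell in the wild-type rescue (-0.71, adjusted p = 0.0164) and in the D152V rescue (-0.75, adjusted p = 0.0205) against the knockdown. Without MYB_KnockDown replicate 1 these were -0.66 (0.0234) and -0.70 (0.0256). MXD3 has the shortest transcript of the 10, 1067 bases, and with the length trend removed the differences were -0.29 (0.30) and -0.37 (0.215), which ended both calls. They were also lost without wild-type rescue replicate 1 (0.0639) or 3 (0.0503) and without D152V replicate 1 (0.0779) or 2 (0.0667), over ranges of 0.00809 to 0.30 and 0.00918 to 0.215. MXD3 overlaps with PRELID1, a mitochondrial lipid transfer gene, over 1451 bases. PRELID1 was at 327 ± 320 FPKM in the knockdown, against 167 ± 10.0 in the control, 153 ± 13.8 in the wild-type rescue and 153 ± 6.15 FPKM in the D152V rescue, and its part in the MXD3 values was not tested.

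MXD4, MXI1 and MNT passed the test in none of the 6 comparisons. MXD4, a relative of MXD1 seen in differentiated tissues, was at 4.51, 5.27 and 4.79 FPKM in the control and at 2.85, 2.31 and 3.72 FPKM in the D152V rescue. These groups did not overlap (log2 difference -0.58, adjusted p = 0.0885, and 0.0224 without MYB_KnockDown replicate 1), and the wild-type rescue at 3.60, 3.36 and 3.39 FPKM was also below the control (-0.39, adjusted p = 0.243). MXI1, also called MXD2, was the flattest member, with values from 7.22 to 9.43 FPKM over the 12 libraries. MNT, the most widely expressed antagonist of MYC, was at 6.63, 8.05 and 6.98 FPKM in the control and at 2.06, 6.19 and 4.81 FPKM in the knockdown. The low value of 2.06 was in the library that stood apart, and the difference from the control was -0.70 with it and -0.34 without it (adjusted p = 0.109 and 0.205). A p above the threshold does not show that these members were equal between groups.

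MLXIP had larger differences than the other members in both rescues against the knockdown and in the wild-type rescue against the control. In the other 3 comparisons MYC differed more. It was at 26.2, 25.4 and 25.1 FPKM in the control, at 9.25, 13.2 and 14.8 FPKM in the knockdown, at 41.6, 46.5 and 34.1 FPKM in the wild-type rescue and at 28.4, 24.7 and 23.4 FPKM in the D152V rescue. The knockdown was below and the wild-type rescue above every other library, and the D152V rescue overlapped with the control. MLXIP fell in the knockdown by 1.01 (SE 0.17, adjusted p = 0.00738, and 0.83 with 0.00166 without MYB_KnockDown replicate 1), to 48.5% of the control mean. Relative to the knockdown it was higher in both rescues, by 1.65 with wild-type MYB (SE 0.17, adjusted p = 8.16e-05) and by 1.00 with D152V (adjusted p = 0.00262). Both rises were smaller without MYB_KnockDown replicate 1, at 1.47 and 0.82 (adjusted p = 1.24e-05 and 0.000742). Both rises held in all 21 alternatives, with adjusted p up to 0.00964 and 0.0472. The fall was lost only on the 6 libraries compared (0.134, in a range of 0.00166 to 0.134). MLXIP has a transcript of 8427 bases, and with the length trend removed these 3 differences were -0.72, 1.27 and 0.70, each still past the threshold.

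MLXIP in the wild-type rescue was also above the control, by 0.64 (adjusted p = 0.0341). This call was lost in 7 of 21 alternatives over a range of 0.00169 to 0.141, among them leaving out any 1 control library (0.0934 to 0.109), wild-type rescue replicate 1 (0.101) or 2 (0.141) or D152V replicate 2 (0.0558). MLXIP was lower in the D152V rescue than in the wild-type rescue (-0.65, SE 0.17, adjusted p = 0.0265). Leaving out wild-type rescue replicate 1 (0.0869) or 2 (0.119) or D152V replicate 2 (0.0899) or 3 (0.101) ended that call, over a range of 0.00129 to 0.119. The D152V rescue differed from the control by -0.01, with a 95% interval of -0.38 to 0.36.

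MLX, the dimer partner of MLXIP, followed another pattern. It was at 32.1, 32.9 and 33.7 FPKM in the control, at 25.4, 33.6 and 34.6 FPKM in the knockdown, at 29.9, 28.3 and 27.6 FPKM in the wild-type rescue and at 21.5, 21.9 and 19.4 FPKM in the D152V rescue. The D152V libraries were below every other library, and the low knockdown value was in replicate 1. MLX fell in the D152V rescue against the control by 0.63 (SE 0.12, adjusted p = 0.00809), which held in all 21 alternatives, with adjusted p up to 0.0409. Against the knockdown it fell by 0.54 (adjusted p = 0.0113, and 0.68 with 0.00015 without MYB_KnockDown replicate 1), lost only on the 6 libraries compared (0.113). Against the wild-type rescue it fell by 0.43 (adjusted p = 0.0427). With the replicate number as a block, which pairs the libraries of these 2 groups, that was -0.43 with adjusted p = 0.0514, and the call was lost in 14 of 21 alternatives, over a range of 0.00078 to 0.148. Leaving out any 1 control or rescue library gave 0.0664 to 0.148. Knockdown and control did not differ past the test (-0.09, 95% interval -0.36 to 0.19, and 0.05 without MYB_KnockDown replicate 1). MLX overlaps over 894 bases with PSMC3IP, a recombination cofactor gene, which was at 32.5 ± 2.80 FPKM in the D152V rescue, 48.6 ± 6.08 in the wild-type rescue and 41.7 ± 3.44 FPKM in the control. Its D152V libraries were also below both groups (adjusted p = 0.0890 and 0.336) and below the knockdown at 57.2 ± 19.2 FPKM (-0.75, adjusted p = 0.0192), and whether the 2 genes share reads was not tested.

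The rescue groups were compared with the knockdown, with each other and with the control to ask how far each form of MYB restores the network. In the wild-type rescue against the knockdown 4 members rose and 1 fell, beside 37.6% of all tested genes called (20.6% higher and 16.9% lower), and without MYB_KnockDown replicate 1, 4 rose and 2 fell. In the D152V rescue against the knockdown 2 rose and 2 fell, beside 25.1% (13% and 12%), with 2 and 2 without that library. The 37.6% and 25.1% are from the fit with all libraries. Without MYB_KnockDown replicate 1 the share was above 37.6% for the wild-type rescue, as given below with the genes that MYC activates. For the D152V rescue it is not given here. In the wild-type and D152V rescues against the knockdown 6 and 4 members had groups that did not overlap, beside 47.9% and 42.7% of all tested genes. These shares are near the background, and the members' medians were 0.34 and 0.24 beside 0.03 and 0.02 over all tested genes, and 0.17 and 0.08 without MYB_KnockDown replicate 1. In the D152V rescue against the wild-type rescue 3 members fell and none rose, beside 12.1% (5.96% higher and 6.19% lower), and 5 of 10 did not overlap, all lower, beside 42.6% of all tested genes. Against the control, 1 member rose in the wild-type rescue, beside 9.62% of all tested genes called (5.04% higher and 4.58% lower), and 2 fell in the D152V rescue, beside 9.55% (4.61% and 4.94%). Groups did not overlap for 4 members in each of these, beside 44.8% and 44.4%.

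The balance within the network was described by ratios of FPKM within each library, with no test. MYC over MAX was 3.01, 2.81 and 2.85 in the control and 2.89 ± 0.106 on average (SD, n = 3). It was 1.28, 2.49 and 2.10 in the knockdown, 3.03, 2.71 and 3.19 in the wild-type rescue and 1.91, 1.91 and 1.79 in the D152V rescue. The knockdown and D152V libraries were below every control and wild-type rescue library, and the D152V rescue had the narrowest spread, 1.87 ± 0.0730. The knockdown mean of MYC over MAX was 2.29 without MYB_KnockDown replicate 1. MYC over the sum of the other 6 MAX partners was 4.72 ± 0.492 in the control, 2.75 ± 0.379 in the knockdown, 4.70 ± 0.169 in the wild-type rescue and 3.27 ± 0.585 in the D152V rescue. MYC thus made up 82.4 ± 1.53% of the summed FPKM of the 7 MAX partners in the control, 73.2 ± 2.79% in the knockdown, 82.4 ± 0.522% in the wild-type rescue and 76.2 ± 3.52% in the D152V rescue. MXD3 made up 17.0 ± 3.44% of the sum of MXD1, MXD3, MXD4 and MXI1 in the control and 30.3 ± 4.02% in the knockdown, or 28.8% without MYB_KnockDown replicate 1. MLXIP over MLX was 0.778 ± 0.0353 in the control, 0.394 ± 0.0319 in the knockdown, 1.42 ± 0.208 in the wild-type rescue and 1.22 ± 0.0988 in the D152V rescue, and the rescue groups overlapped with each other and with no other group.

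**Figure D3:**
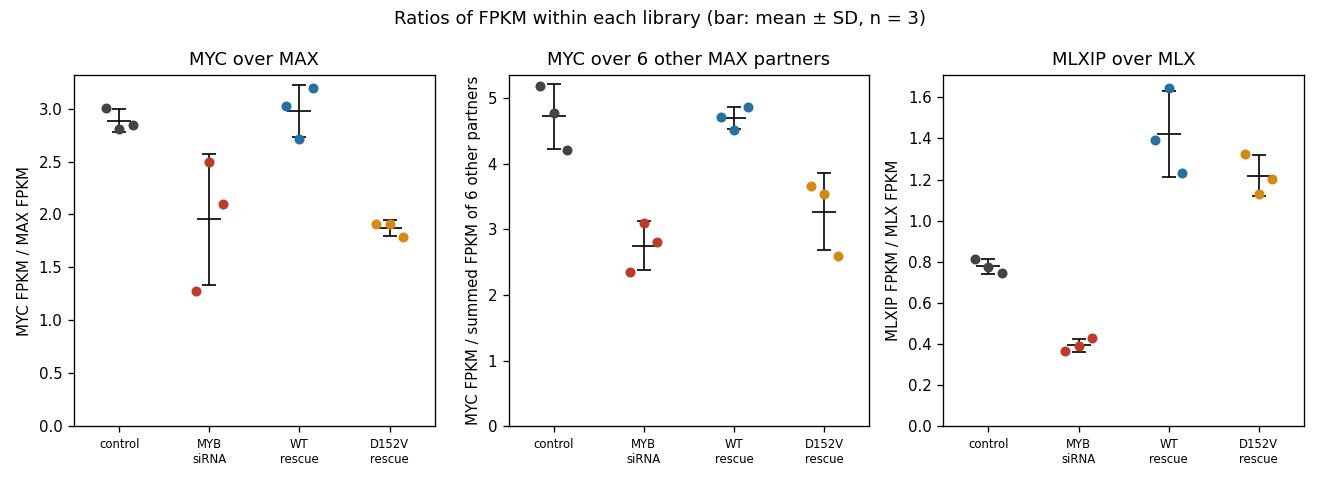
Ratios of FPKM within each library (vertical axes, from 0) by group (horizontal axis), with a point per library and a bar for the mean ± SD of 3. MYC over MAX lies at 1.28 to 2.49 in the knockdown and 1.79 to 1.91 in the D152V rescue, below the 2.71 to 3.19 of the wild-type rescue, while MLXIP over MLX is above 1 in each rescue library.

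Genes that MYC is known to activate, a list of 32 of which 31 were tested, had calls in both directions. In the knockdown 3 fell and 1 rose, with a median difference of 0.00 beside -0.03 over all tested genes. NOLC1, a nucleolar phosphoprotein, fell from 160 ± 8.03 to 95.1 ± 17.5 FPKM (-0.76, adjusted p = 0.0160), and SHMT2, the mitochondrial serine hydroxymethyltransferase, from 203 ± 10.1 to 96.6 ± 37.1 FPKM (-1.15, adjusted p = 0.0174). PA2G4, a growth-linked RNA-binding protein, fell by 0.51, and CDK4, a kinase of the G1 phase, rose by 0.50. Without MYB_KnockDown replicate 1, 7 fell and 1 rose, with a median of -0.11, and 20.1% of all tested genes were called in place of 11.3%. In the wild-type rescue against the knockdown 4 rose and 6 fell, beside 37.6% of all tested genes called, and without that library 10 and 8, beside 45.2%. NOLC1 rose by 0.56 and CDK4 fell by 0.96, while SHMT2 was below the control in both rescues, at 98.7 ± 7.41 FPKM in the wild-type rescue (-1.04, adjusted p = 0.0197) and 104.7 ± 3.52 FPKM in the D152V rescue (-0.95, adjusted p = 0.0291). Between the rescues 1 gene of the list differed, EIF2S1, the alpha subunit of a translation initiation factor, at 421 ± 47.8 FPKM in the D152V rescue and 206 ± 40.0 in the wild-type rescue (1.04, adjusted p = 0.00127). Without MYB_KnockDown replicate 1, 2 were higher and 7 lower there, when 31.4% of all tested genes were called in place of 12.1%. Relative to the control, 4 of the 31 differences were above 0 in the D152V rescue, with 1 called in each direction. Their median was -0.21, beside -0.04 over all tested genes. In the wild-type rescue 11 were above 0, with a median of -0.12 beside -0.02.

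Of the genes that MYC is known to repress 9 of 11 were tested. Their median difference was 0.34 in the knockdown, beside -0.03 over all tested genes. Each of the 9 differences was above 0, also with quantile normalization, median-ratio scaling or the length trend removed. Only 1 passed the test, beside 3.94% of all tested genes called higher. That gene was BTG1, an antiproliferative factor, at 13.8 ± 1.59 FPKM in the control and 31.2 ± 11.6 FPKM in the knockdown (1.08, adjusted p = 0.0132). Without MYB_KnockDown replicate 1, 4 rose, and more genes were called over the whole table too. In the wild-type rescue against the knockdown 3 fell, beside 16.9% of all tested genes. These were BTG1 (-1.76), CDKN2C, an inhibitor of CDK4 and CDK6 (-0.98), and NDRG1, a stress-response gene (-0.57). In the D152V rescue against the wild-type rescue 2 were higher and none lower, beside 5.96% and 6.19% of all tested genes. BTG2, a relative of BTG1, was at 19.9 ± 1.05 against 8.26 ± 0.959 FPKM (1.18, adjusted p = 0.000184), and NDRG1 at 3.79 ± 0.327 against 1.79 ± 0.252 FPKM (0.78, adjusted p = 0.0167). Against the control, BTG2, CDKN1A, the p21 inhibitor, and NDRG2 were higher in the D152V rescue, by 0.93, 0.98 and 0.68. CDKN1A was also higher than the control in the wild-type rescue, by 0.74 (adjusted p = 0.0492). In the D152V rescue against the knockdown 1 of the 9 fell and 2 rose. BTG1 fell to 13.5 ± 1.29 FPKM (-1.10, adjusted p = 0.00455), while BTG2 and CDKN1A rose by 0.84 and 0.64. The CDKN1A call was lost without MYB_KnockDown replicate 1. The list median there was -0.05, with 4 differences above 0, and 0.07 with 5 above 0 without that library.

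Glucose-responsive genes that MLXIP and MLX are known to bind, 9 in all, had a median of -0.45 in the knockdown with 1 gene past the test, and of 0.37 in the wild-type rescue against the knockdown with 2 genes past it. These medians were -0.25 and 0.13 without MYB_KnockDown replicate 1, and with the length trend removed -0.17 and 0.08. PFKFB3, which makes an activator of glycolysis, fell in the knockdown from 5.12 ± 0.421 to 2.42 ± 0.946 FPKM (-0.88, adjusted p = 0.0167). KLF10 and PKLR, the liver and red cell pyruvate kinase, rose in the wild-type rescue by 1.25 and 1.13. TXNIP, the inhibitor of glucose uptake often used as a readout of MLXIP, was at 70.5 ± 13 FPKM in the control, 83.3 ± 10.6 in the knockdown (0.24, adjusted p = 0.304), 108 ± 11 in the wild-type rescue (0.61, adjusted p = 0.0338) and 115 ± 16.3 FPKM in the D152V rescue (0.71, adjusted p = 0.0169). Its paralogue ARRDC4 was at 5.44 ± 0.592 FPKM in the control and 8.33 ± 1.65 in the knockdown (0.52, adjusted p = 0.0587, and 0.66 with 0.0100 without MYB_KnockDown replicate 1), and was higher than the control in the wild-type rescue (0.64, adjusted p = 0.0316). In the knockdown these 2 genes were thus above the control, opposite in sign to the median of their list. PKLR and ACACA, an enzyme of fatty acid synthesis, were lower in the D152V rescue than in the wild-type rescue. PKLR was at 12.1 ± 2.63 against 39.6 ± 6.87 FPKM (-1.64, adjusted p = 0.00333), and ACACA at 13.2 ± 1.49 against 20.3 ± 2.49 FPKM (-0.58, adjusted p = 0.0114). Against the control 3 of the 9 genes were called lower and 1, TXNIP, higher in the D152V rescue, beside 4.94% and 4.61% of all tested genes. The list median there was -0.44, beside -0.04 over all tested genes, with 4 differences above 0. In the wild-type rescue against the control 2 were higher and none lower, with a median of -0.02 beside -0.02.

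Cofactors of MYC were described from 4 further lists. Of 16 coactivators 5 rose in the wild-type rescue against the knockdown and none fell, beside 20.6% of all tested genes higher and 16.9% lower. KAT2A, the acetyltransferase GCN5, and EP400, an ATPase of the TIP60 complex, were lower in the D152V rescue than in the wild-type rescue, by 0.57 and 0.49. Of 13 SIN3 and HDAC corepressors, which MXD proteins recruit, SIN3A fell in the knockdown from 27.0 ± 2.54 to 14.9 ± 4.42 FPKM (-0.85, adjusted p = 0.0195), and HDAC1 was lower in the D152V rescue than in the wild-type rescue (-0.47, adjusted p = 0.0396). Of 10 subunits that join MGA in its Polycomb complex, RNF2, a histone ubiquitin ligase, fell in the knockdown by 0.63 and rose by 0.85 and 0.58 in the wild-type and D152V rescues. These were -0.39, 0.60 and 0.34 without MYB_KnockDown replicate 1, each still called. Of 14 regulators of MYC protein turnover, GSK3A and SKP2 fell in the knockdown by 0.67 and 0.82. In the wild-type rescue against the knockdown 6 rose and 2 fell, beside the same 20.6% and 16.9%, with the ubiquitin ligases HUWE1 up by 0.69 and FBXW7 by 0.74. SKP2, an F-box protein that targets MYC and cell cycle inhibitors, was at 50.6 ± 3.69 FPKM in the control, 28.7 ± 7.41 in the knockdown, 50.7 ± 4.09 in the wild-type rescue and 27.4 ± 3.02 FPKM in the D152V rescue (D152V against wild type -0.87, adjusted p = 0.00687).

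**Figure D4:**
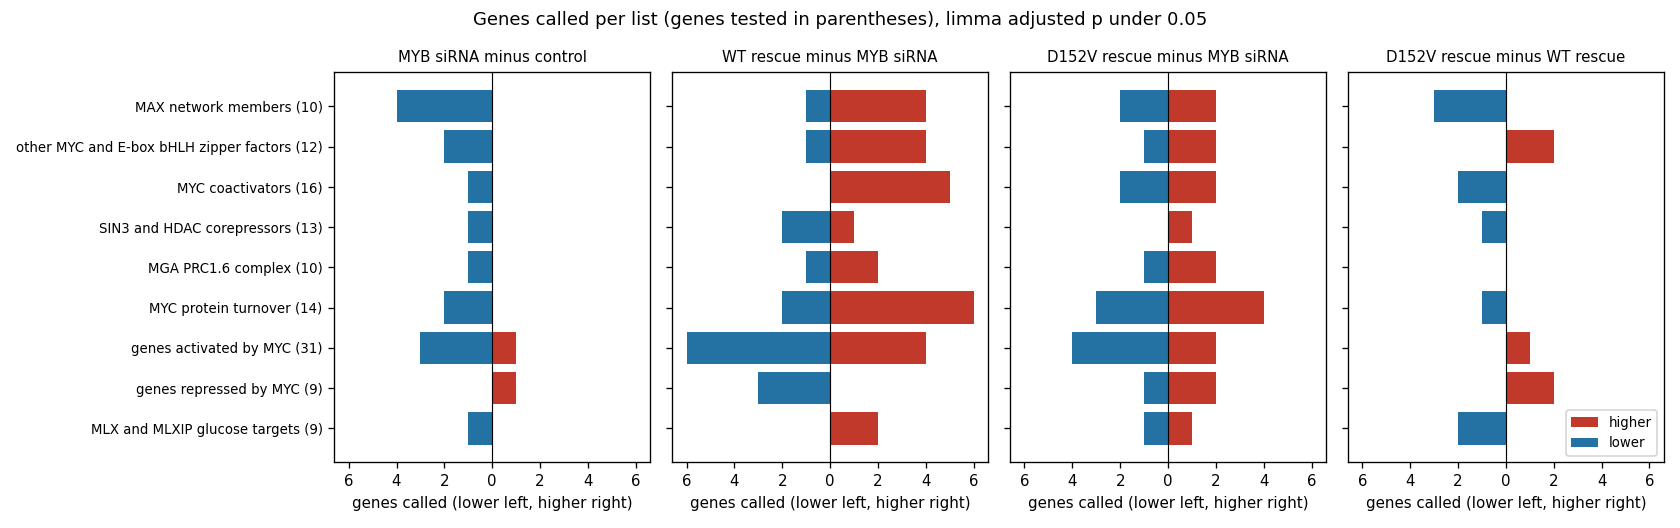
Number of genes past an adjusted p of 0.05 (horizontal axis, lower to the left and higher to the right) in each gene list (vertical axis, genes tested in parentheses) in 4 comparisons. The list of genes activated by MYC has calls in both directions in the knockdown, 1 higher and 3 lower, and in the wild-type rescue, 4 higher and 6 lower.

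Other factors that bind E-boxes or belong to the MYC family were compared as relatives of the members. Of 14 listed, 12 were tested. MYCN, at a mean of 0.00134 FPKM over the 12 libraries, was not among them. MYCL, the other MYC paralogue, was at 3.00 ± 0.0907 FPKM in the control, 1.94 ± 0.123 in the knockdown, 1.58 ± 0.0678 in the wild-type rescue and 1.30 ± 0.0969 FPKM in the D152V rescue. It was lower than the control in each of the other groups, by 0.45, 0.63 and 0.80 (adjusted p = 0.0305, 0.00483 and 0.00106). TFAP4, which is known as a MYC target, fell in the knockdown from 19.9 ± 1.05 to 10.7 ± 2.02 FPKM (-0.85, adjusted p = 0.0154) and rose in the wild-type rescue to 17.5 ± 2.81 FPKM (0.67, adjusted p = 0.0113). BHLHE40, a repressor of the circadian family, was at 65.2 ± 9.93 FPKM in the D152V rescue and 31.6 ± 8.46 in the wild-type rescue (1.04, adjusted p = 0.0168). For the named genes of these lists, members left out, leaving out at least 1 of the 12 libraries ended 13 of 13 calls in the knockdown, 13 of 27 in the wild-type rescue against the knockdown, 14 of 23 in the D152V rescue against the knockdown, 6 of 11 between the rescues, and 5 of 6 and 12 of 17 in the wild-type and D152V rescues against the control. The calls against the control of TXNIP, ARRDC4, SHMT2, CDKN1A and NDRG2 are among those that ended. Leaving out MYB_KnockDown replicate 1 kept 13 of 13 calls in the knockdown and 25 of 27 and 21 of 23 in the wild-type and D152V rescues against it. With only the 6 libraries compared, no gene of any list passed in the knockdown. With the length trend removed the calls of MYCL in the knockdown (adjusted p = 0.0918), HUWE1 in the wild-type rescue (0.171), HDAC1 (0.0670) and ACACA (0.0514) between the rescues and SHMT2 in the D152V rescue against the control (0.0610) were lost, and that of NDRG1 in the wild-type rescue was lost without MYB_KnockDown replicate 1 (0.0676).

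Across the 12 libraries MYC went with MGA at a Pearson r of 0.94, with MXD1 at 0.77, MLXIP at 0.76 and MAX at 0.68. The r was 0.66 with MNT, 0.59 with MXI1, 0.44 with MLX, 0.13 with MXD4 and -0.65 with MXD3. These values describe libraries that share 4 groups and the outlying knockdown library, and genes are not independent replicates. Among 8383 tested protein-coding genes with a mean FPKM of at least 5, the 5 with the highest r to MYC were SCAF4 (0.988), ATP13A3 (0.976), UBP1 (0.968), SLC7A1 (0.966) and TENT2 (0.966). SCAF4, a regulator of transcript ends, was at 41.9 ± 3.24 FPKM in the control, 21.7 ± 3.65 in the knockdown, 36.4 ± 2.70 in the wild-type rescue and 24.9 ± 2.65 FPKM in the D152V rescue. SLC7A1, an arginine transporter, was at 13.6 ± 0.612, 7.72 ± 1.81, 13 ± 1.97 and 8.78 ± 1.27 FPKM in the same groups.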

How the data were processed

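RNA sequencing had been done on poly(A) RNA of 12 K-562 libraries, and the authors deposited 1 table of FPKM values. Per the submitters' processing notes Cufflinks 2.2.1 and TopHat2 2.0.13 were used on GRCh38, after bcl2fastq 2.17.1.14 and Trimmomatic 0.33. For the annotation and the use of strand, nothing is given in the sources used here. FPKM depends on transcript length and on the most abundant transcripts. Read counts were not recoverable, since only a median of 3.46% of the ratios of low values came within 2% of the median ratio of 2 libraries, so depth is unknown and no count model was used.

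Values were analysed as log2(FPKM + 1), which understates changes of low genes. All 12 libraries entered 1 limma 3.58.1 model (R 4.3.3) with a trended variance (8 residual degrees of freedom) over the 13393 genes that reached an FPKM of 1 in 3 or more libraries, and p-values were Benjamini-Hochberg adjusted over these genes at 0.05. The model was run on simulated data with independent noise of equal spread in each library. They held no outlying library, length trend or shared replicate effect, so that run does not cover these. P-values measure the spread between libraries within a group, pooled over all groups, with no term for the experiment. They hold no spread between lines, since each MYB form was carried by 1 line. Groups came from sample titles. The members and lists were chosen with earlier results of these data known. Named genes were all members, MYB, up to 4 called genes per list and comparison by adjusted p, and the 5 genes most correlated with MYC.

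Replicate numbers from the titles were checked by correlating deviations from group means. Between the 2 rescue groups same-numbered libraries correlated at 0.153 to 0.233, so the numbers pair them, and no other pair of groups had every value over 0.1. For control and knockdown the same-numbered values, 0.0376 to 0.132, were also above the different-numbered ones, -0.146 to 0.0311. In the remaining pairs of groups the 2 ranges overlapped. The alternatives were quantile normalization, median-ratio scaling, no filter, a filter at a mean FPKM of 5, a pseudocount of 0.1, the replicate block, only the 6 libraries compared and leaving out each library. Fits with the transcript length trend of each library removed, alone and with the block, and lists without MYB_KnockDown replicate 1 were added after seeing the data. The result of 1 listed gene is not reported here. Coordinates are RefSeq's on GRCh38.p14.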

Additional observations from a re-analysis of the deposited data

Results flagged for a closer look

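The 2 rescue lines, given the same siRNA, differed in 3 members, each lower with D152V than with wild-type MYB. MYC differed by -0.66, MLX by -0.43 and MLXIP by -0.65 on the log2 scale, by the direct contrast of the 2 groups, with 3 of 3 D152V libraries below every wild-type rescue library for each gene. Over all tested genes 12.1% were called and 42.6% did not overlap. The call was lost in 10 of 21 alternatives for MYC and in 14 for MLX, among them the replicate block (adjusted p = 0.0514), and for MLXIP without wild-type rescue replicate 1 or 2 or D152V replicate 2 or 3. The lines also differed in MYB itself, by -0.44, and in summed erythroid marker levels, 1447 to 2455 FPKM in the wild-type rescue and 2759 to 4565 FPKM in the D152V rescue. The part of either in these results was not tested, and the MYB form and the line that carries it cannot be told apart.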

How the results depend on the processing

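Over 21 alternatives for each of 6 comparisons, 288 of 399 values of called members kept their direction and side of the threshold, 111 lost the call and none reversed. Of 855 values of members not called, 795 kept their side and direction, 30 passed the test and 30 reversed, all within differences that had not passed it. The causes were not tested.

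Counts of called genes over the whole table were 1516 for knockdown against control, 5031 and 3355 for wild-type and D152V rescue against knockdown, 1627 for D152V against wild-type rescue, and 1289 and 1279 for wild-type and D152V rescue against control. With no filter the first was 738, and with a mean FPKM of at least 5 the last 3 were 869, 710 and 699. With only the 6 libraries compared, which leaves fewer degrees of freedom, the 6 counts were 16, 1689, 548, 3275, 3512 and 3575. Leaving out 1 library gave 173 to 2697, 3194 to 6055, 1639 to 4389, 1020 to 4209, 682 to 3973 and 725 to 3706. Of the calls in the first comparison 34.8% were higher, 45.5% with quantile normalization and 45.1% with median-ratio scaling. With the replicate block the counts were 1712, 5340, 3672, 1871, 1498 and 1499. The block ended the calls of MLX between the rescues and of MXD1 in the D152V rescue against the knockdown (adjusted p = 0.0514 and 0.0589), and added MXD3 in the knockdown (0.04995) and MAX in the wild-type rescue against the knockdown (0.0456). It changed no other of the calls of members described.

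The reversed values, on the log2 scale, were as follows. With quantile normalization MXI1 in wild-type rescue against knockdown was -0.00027, MAX between the rescues 0.058 and MLXIP in D152V rescue against control 0.039. With median-ratio scaling the last 2 were 0.018 and 0.017. With the length trend removed, with or without the block, MXI1 in wild-type rescue against knockdown was -0.076, MGA in D152V rescue against knockdown -0.14, MAX between the rescues 0.0074 and MXD3 in wild-type rescue against control 0.017. Leaving out 1 library reversed 10 differences, whose ranges were -0.16 to 0.051 for MLX and -0.35 to 0.0031 for MXD4 in knockdown against control, -0.012 to 0.11 for MXI1 in wild-type rescue against knockdown, -0.022 to 0.39 for MGA in D152V rescue against knockdown, -0.080 to 0.094 for MAX and -0.18 to 0.11 for MXD3 between the rescues, -0.22 to 0.056 for MXD3 in wild-type rescue against control, and -0.084 to 0.012 for MXD1, -0.26 to 0.021 for MXD3 and -0.085 to 0.051 for MLXIP in D152V rescue against control. For MXD4, whose mean FPKM is under 5, the filter at that level gave no value.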
